A study of Mus musculus with 12 samples.

Results

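The 7 serotonin receptor genes Htr1a, Htr1f, Htr2a, Htr2c, Htr3a, Htr4 and Htr7 were followed by single nucleus RNA-seq across the cell classes of the P21 mouse cortex and between MYT1L genotypes. They were taken by symbol from the 55336 genes of the count matrices, and all 7 were found. The 12 animals came from crosses of WT with heterozygous (Het) mice of the C57BL/6 line MYT1L S710fsX, which carries a frameshift in Myt1l, a zinc finger transcription factor of neurons. There were 3 WT males, 3 WT females, 3 Het males and 3 Het females (n = 6 per genotype). Each animal was marked by its own reverse transcription barcodes, and nuclei of all animals were then pooled and carried through the same plates and sequencing. Every pup of either genotype had received AAV9 vectors with the Calling Cards constructs hyPB and H2b-tdT-SRT within a day of birth, so no animal was free of virus. Nuclei were purified from flash frozen cortex on an iodixanol gradient, and the counts are UMIs, that is, distinct RNA molecules.

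Serotonin reaches the cortex through fibers from the raphe nuclei and acts on receptors that differ in their signaling. Htr1a and Htr1f couple to Gi/o proteins and lower cyclic AMP, Htr2a and Htr2c couple to Gq proteins and activate phospholipase C, and Htr4 and Htr7 couple to Gs proteins and raise cyclic AMP. Htr3a encodes a subunit of the only serotonin-gated ion channel and is a classic marker of a group of cortical interneurons.

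After filtering, 33118 of 78743 barcodes were kept (1551 to 4412 per animal, with 5099238 to 14014843 UMIs in all), and no barcode occurred in more than 1 animal. The kept nuclei fell into 91 clusters, of which 46 were assigned to 19 classes by the summed UMIs of marker genes that included no serotonin receptor, and 16 classes were compared. The 7 excitatory classes were layer 2/3 intratelencephalic (L2/3 IT-like), L4/5 IT-like, L6 IT-like, L5 near-projecting (L5 NP-like), L6 corticothalamic (L6 CT-like), Car3-like and dentate gyrus (DG-like), and the 7 inhibitory classes were Pvalb-like, Sst-like, Vip-like, Sncg-like, Lamp5-like, striatal D1-like and striatal D2-like. Oligodendrocyte-like and oligodendrocyte precursor (OPC-like) nuclei completed the set. The remaining clusters held 36.9% of the nuclei and were left unnamed. DG-like nuclei made up 2.12% of WT and 2.89% of Het nuclei, so the tissue labelled cortex also held nuclei with the markers of hippocampal and striatal neurons. Stac, Fbn2 and Sncg, 1 marker each of the L5 NP-like, Lamp5-like and Sncg-like classes, were at or under the median of the other classes, and Sncg itself was not detected in the Sncg-like nuclei.

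Myt1l was not lower in Het. With levels given as CPM, the UMIs of a gene scaled to the summed UMIs of the same nuclei, its mean was 976 CPM in WT and 1091 CPM in Het excitatory nuclei (log2 Het over WT 0.14 ± 0.053 (SE), edgeR quasi-likelihood adjusted p = 0.445). It was 861 and 1011 CPM in inhibitory nuclei (log2 0.22 ± 0.081, edgeR adjusted p = 0.538). Over the 15 classes that could be fitted its log2 difference ran from -0.05 to 0.35 and none was called. In L6 CT-like nuclei it was 1203 and 1441 CPM (edgeR adjusted p = 0.0782), and in striatal D1-like nuclei every Het animal (1398 CPM or more) was above every WT animal (1375 CPM or less, log2 0.35, edgeR adjusted p = 0.438). Whether transcripts of the frameshift allele were counted was not tested, and these UMIs gave no check of the labels, so genotypes are given as labelled.

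The promoters of 5 receptors could be read, and 3 are shown because MYT1L is known to bind a motif with the core AAGTT. Each is the stretch of RefSeq sequence (GRCm38.p6) upstream of the annotated gene, at chr16:65105855-65106034 on the minus strand for Htr1f, chrX:146962263-146962512 on the plus strand for Htr2c and chr19:36057508-36057610 on the minus strand for Htr7. Capitals mark AAGTT or its reverse complement AACTT, and the sequences run 5′ to 3′:
Htr1f: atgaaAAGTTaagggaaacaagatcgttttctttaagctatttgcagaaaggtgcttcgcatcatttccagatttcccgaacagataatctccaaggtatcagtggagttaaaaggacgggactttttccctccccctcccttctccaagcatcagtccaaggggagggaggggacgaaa
Htr2c: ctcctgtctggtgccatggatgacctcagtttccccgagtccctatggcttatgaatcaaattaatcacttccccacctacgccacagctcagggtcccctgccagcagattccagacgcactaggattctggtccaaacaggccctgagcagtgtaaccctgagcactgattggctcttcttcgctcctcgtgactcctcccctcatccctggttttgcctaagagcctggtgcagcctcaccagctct
Htr7: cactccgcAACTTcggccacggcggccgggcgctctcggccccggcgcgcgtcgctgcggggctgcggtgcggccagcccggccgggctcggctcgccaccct
The core occurred in the stretches of Htr1f and Htr7, at their 5′ ends, and not in those of Htr1a, Htr2a and Htr2c. Of all 32851 promoters of the same table, 35.3% held it within the 250 bases before the start, so its presence in 2 of 5 shorter or equal stretches was near the background.

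The genes lay on 7 chromosomes (mm10, GENCODE M21): Htr1a at chr13:105443639-105448122 on the plus strand, Htr1f at chr16:64924729-65105854 on the minus strand, Htr2a at chr14:74640840-74709494 on the plus strand, Htr2c at chrX:146962513-147197277 on the plus strand, Htr3a at chr9:48899213-48911099 on the minus strand, Htr4 at chr18:62324204-62496577 on the plus strand and Htr7 at chr19:35958734-36057507 on the minus strand. All 7 are protein-coding. Htr2c holds the small RNA genes Snora35 and 7 miRNA genes on its own strand, and Snora35 had 1 UMI. Htr3a overlaps the antisense gene Gm32335, which had 18.5 UMIs against 169 of Htr3a. UMIs from nuclei come largely from introns, and these genes differ widely in length, so each receptor was compared between classes and the receptors were not ranked against each other.

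The receptors differed in the classes where they were high. In 98 tests of a receptor in a neuronal class against the other classes of the same broad group, 18 were higher and 38 lower (exact two-sided sign-flip test over animals, Benjamini-Hochberg adjusted p below 0.05 over 275646 tests of 19689 genes with at least 30 UMIs in these classes). Among all genes 6.47% of tests were higher and 14.2% lower, 20.7% in all, against 18.4% and 38.8% of the receptor tests. The classes came from clusters built on many of those other genes. The receptors had 62.3 (Htr1a) to 18625 UMIs (Htr1f) and were not matched to the other genes in counts. They were also chosen with earlier results of these data known, so the shares are descriptions. The lower calls of Htr1a in Car3-like and L6 IT-like nuclei came from classes without an Htr1a UMI. Adjusted over the 98 receptor tests alone, 20 were higher and 46 lower. Among the compared classes, expression was highest for Htr1f in L6 CT-like nuclei, for Htr2a in Car3-like and Lamp5-like nuclei, for Htr2c in striatal D2-like nuclei, for Htr3a in Sncg-like and Vip-like nuclei, for Htr4 and Htr1a in DG-like nuclei and for Htr7 in Sncg-like nuclei. Named clusters held 43.8% of all Htr2c UMIs, 52.5% of those of Htr7 and 63.2% to 76.9% of those of the other receptors. Some unnamed clusters, given below, were higher than these classes. Of the 105 pairs of neighbors in the order of mean levels, 9 differed beyond the spread between animals (exact sign-flip tests, adjusted over these 105 pairs), so most of each order below is not resolved.

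**Figure D1:**
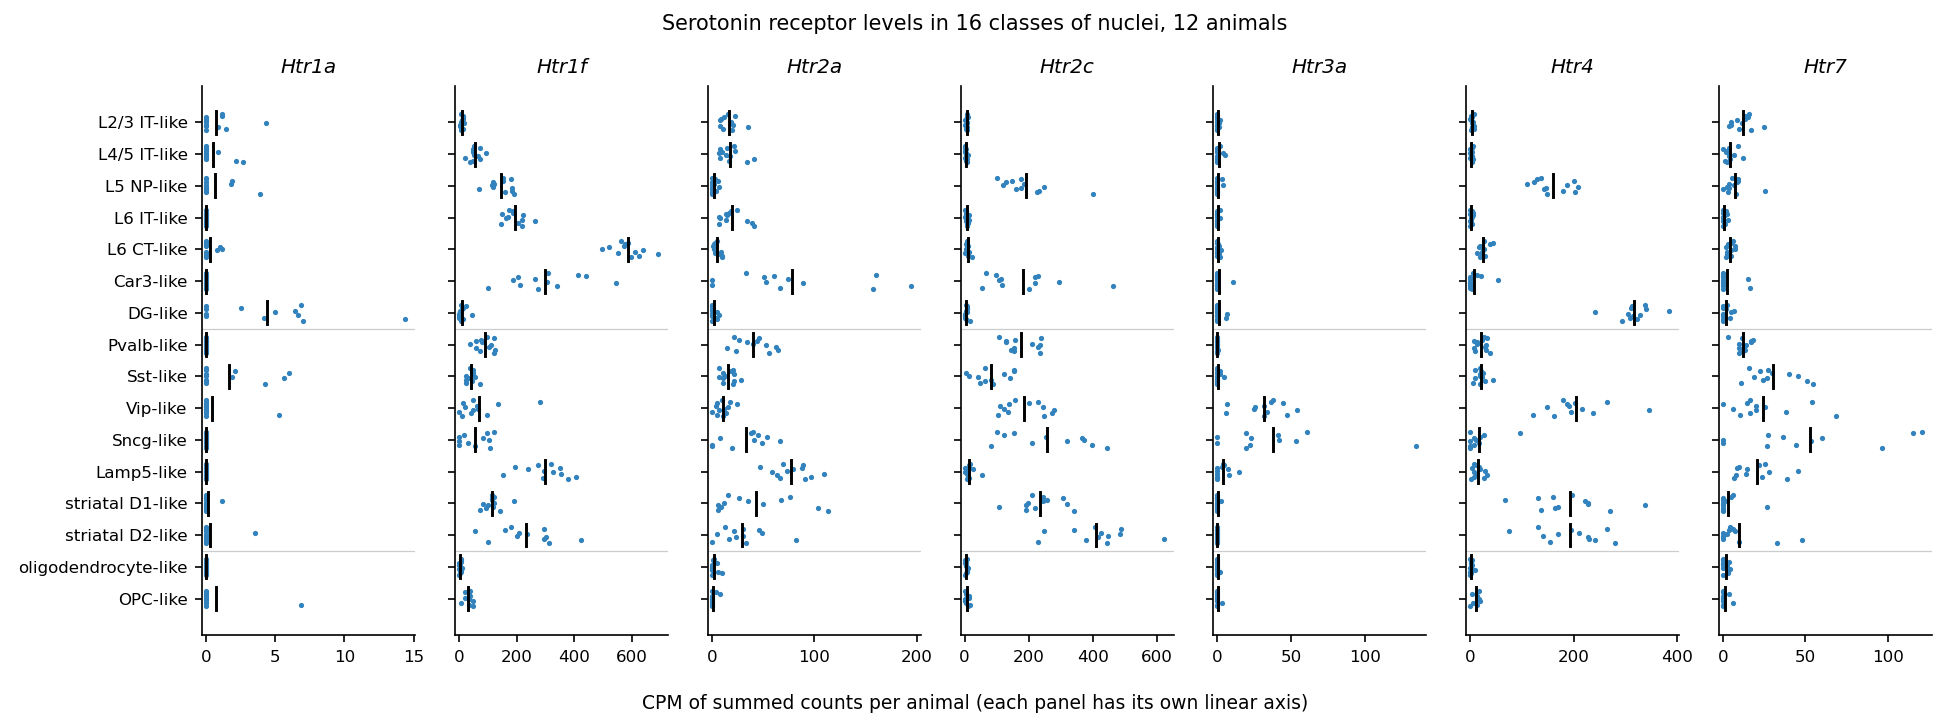
CPM of each serotonin receptor (1 panel per gene, linear axes) in the 16 classes, with a point for each animal that had at least 10 nuclei and a black bar for the mean. Htr1f in L6 CT-like nuclei and Htr4 in DG-like nuclei have the highest means of their panels and differ from the next class, while the leading classes of Htr2a, Htr3a and Htr7 overlap.

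Of the Gi-coupled receptors, Htr1f was most abundant in L6 CT-like nuclei, the excitatory neurons that project back to the thalamus. WT animals ranged from 550.4 to 691 CPM (median 619) and Het animals from 496 to 587 CPM (median 567), and the mean over all 12 was 586 ± 53.1 CPM (SD). Every animal was high in this class, and 5 of the 6 WT animals were above all Het animals. The mean was 4.94-fold that of the other excitatory classes and higher in 12 of 12 animals (exact sign-flip test, p = 0.000488, the smallest that 12 animals allow, adjusted p = 0.00571). L6 CT-like nuclei held 39.8% of all Htr1f UMIs. With each nucleus above 1500 UMIs thinned to 1500, an expected 52.8% of L6 CT-like nuclei had an Htr1f UMI (73.8% unthinned, median depth 3321 UMIs). This compares with 0.53% of oligodendrocyte-like nuclei (0.97% unthinned, median depth 2492 UMIs), the class taken as the level of free RNA. Here and below, thinned shares are expected values. Nuclei with fewer than 1500 UMIs kept their own depth, so depth was not made fully equal between classes.

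Next in the order of Htr1f were Car3-like nuclei at 299.6 ± 123 CPM, Lamp5-like nuclei at 298 ± 74.6 CPM and striatal D2-like nuclei at 231 ± 101 CPM (SD, n = 12). Car3-like neurons are a deep excitatory population of the lateral cortex and claustrum, and Lamp5-like interneurons include the neurogliaform cells. All 3 were above the other classes of their group (1.80-fold, 2.96-fold and 2.07-fold, with adjusted p = 0.0166, 0.00571 and 0.0192 by exact sign-flip tests). L6 CT-like nuclei exceeded Car3-like nuclei in 12 of 12 animals (adjusted p = 0.0103 by an exact sign-flip test), whereas Car3-like and Lamp5-like nuclei did not differ beyond their spread (mean difference 1.45 ± 137 CPM). L6 IT-like (193 ± 34.7 CPM) and L5 NP-like nuclei (145 ± 37.0 CPM) followed. Striatal D2-like and L6 IT-like nuclei did not differ beyond their spread (mean difference 38.4 ± 82.5 CPM, adjusted p = 0.587 by an exact sign-flip test). L6 IT-like nuclei exceeded L5 NP-like nuclei in 11 of 12 animals (adjusted p = 0.0220 by an exact sign-flip test). DG-like and L2/3 IT-like nuclei, at 10.5 ± 12.4 and 9.84 ± 4.58 CPM, were the lowest of the neuronal classes, and both were lower than the other excitatory classes in 12 of 12 animals.

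Htr1a, the inhibitory receptor of hippocampal and cortical neurons that is also the autoreceptor of raphe neurons, was close to the limit of detection, with 62.3 UMIs in all kept nuclei. It reached 4.42 ± 4.30 CPM in DG-like nuclei, from 13 UMIs, with 0 to 14.4 CPM in WT (median 5.42) and 0 to 6.85 CPM in Het animals (median 3.76). The groups overlapped, and 8 of 12 animals were above the other excitatory classes (exact sign-flip test, p = 0.00781, adjusted p = 0.0398). Sst-like nuclei came next with 1.64 ± 2.34 CPM from 7 UMIs and did not differ from DG-like nuclei beyond the spread (adjusted p = 0.464 by an exact sign-flip test). In 89 of the 91 clusters Htr1a was at or under 3 UMIs.

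Of the Gq-coupled receptors, Htr2a, the receptor through which psychedelics act on cortex, was highest in Car3-like and Lamp5-like nuclei. Car3-like nuclei had 0 to 194 CPM in WT (median 77.9) and 0 to 160.0 CPM in Het animals (median 56.1), with a mean of 78.3 ± 62.2 CPM. This spread came with few nuclei, 10 to 46 per animal, and 96 UMIs in all, and 1 animal of each genotype had none. Lamp5-like nuclei varied less, with 59.1 to 110 CPM in WT (median 78.9), 46.8 to 88.6 CPM in Het (median 76.6) and a mean of 77.8 ± 17.9 CPM. Both were above the other classes of their group, 7.46-fold in 10 of 12 animals for Car3-like (adjusted p = 0.0138, exact sign-flip test) and 2.73-fold in 12 of 12 for Lamp5-like (adjusted p = 0.00571, exact sign-flip test). An Htr2a UMI was found in 10.5% of thinned Lamp5-like nuclei (20.8% unthinned, median depth 3580 UMIs) against 0.293% of oligodendrocyte-like nuclei. Pvalb-like nuclei had 40.6 ± 16.5 CPM and held 13.9% of the Htr2a UMIs. L2/3, L4/5 and L6 IT-like nuclei had 16.6 to 19.9 CPM and did not differ from their neighbors in the order. L5 NP-like (1.84 CPM), DG-like (1.82 CPM) and L6 CT-like nuclei (4.76 CPM) were lower than the other excitatory classes in 12 of 12 animals each.

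Htr2c, whose transcript is known for RNA editing and whose protein acts in the hypothalamic control of feeding, was high in striatal, inhibitory and some excitatory classes. Striatal D2-like nuclei, the projection neurons of the indirect pathway, had 228 to 620.3 CPM in WT (median 431) and 249 to 487 CPM in Het animals (median 415), with a mean of 410.4 ± 106 CPM. The Het values lay inside the wider WT range, and all 12 animals were above the other inhibitory classes (2.62-fold, adjusted p = 0.00571, exact sign-flip test). After thinning, 37.4% of these nuclei had an Htr2c UMI (55.4% unthinned, median depth 3094 UMIs), against 0.549% of oligodendrocyte-like nuclei. Sncg-like (257 ± 131 CPM, n = 11), striatal D1-like (236 ± 65.2 CPM), Vip-like (186 ± 65.9 CPM) and Pvalb-like nuclei (177 ± 48.7 CPM) followed among inhibitory classes. In the order of all classes, L5 NP-like nuclei lay between striatal D1-like and Vip-like nuclei, and Car3-like nuclei between Vip-like and Pvalb-like nuclei. No neighbors in that order from striatal D2-like to Pvalb-like nuclei differed (adjusted p = 0.0746 or more, exact sign-flip tests). Vip-like nuclei were not tested directly against striatal D1-like or Pvalb-like nuclei. Sst-like nuclei were lower, at 81.1 ± 52.3 CPM, than Pvalb-like nuclei in 12 of 12 animals, and Lamp5-like nuclei, at 14.3 ± 14.9 CPM, were lower again in 12 of 12 (adjusted p = 0.0103 for each, exact sign-flip tests). Lamp5-like nuclei were thus high for Htr1f and Htr2a and the lowest inhibitory class for Htr2c.

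Among excitatory classes Htr2c was high in L5 NP-like (191 ± 79.8 CPM) and Car3-like nuclei (182 ± 116 CPM), each above the other classes in 12 of 12 animals (5.39-fold and 4.90-fold, adjusted p = 0.00571 for each, exact sign-flip tests). The other 5 excitatory classes had 4.28 to 9.31 CPM, and oligodendrocyte-like nuclei had 4.36 ± 3.10 CPM. Of these 5, DG-like and L4/5 IT-like nuclei were neighbors of oligodendrocyte-like nuclei in the order and did not differ from them (exact sign-flip tests, unadjusted p = 0.822 and 0.940). The others were not tested against oligodendrocyte-like nuclei, the level of free RNA.

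Htr3a, the ion channel subunit, was confined among the compared classes to 2 interneuron classes above 4 CPM. Vip-like interneurons, which mostly inhibit other interneurons, had 5.53 to 54.0 CPM in WT (median 32.8) and 6.22 to 44.3 CPM in Het animals (median 33.8), with a mean of 31.5 ± 14.7 CPM. Sncg-like interneurons, the Cck-expressing basket cells, had 0 to 135 CPM in WT (median 22.1) and 0 to 60.4 CPM in Het animals (median 31.7), with a mean of 37.6 ± 37.6 CPM from 24 UMIs (n = 11). Every animal had Htr3a in its Vip-like nuclei, whereas some had none in the few Sncg-like nuclei. Vip-like nuclei were above the other inhibitory classes in 12 of 12 animals (4.85-fold, adjusted p = 0.00571) and Sncg-like nuclei in 9 of 11 (6.38-fold, adjusted p = 0.0233, both by exact sign-flip tests). Vip-like nuclei exceeded Lamp5-like nuclei, next in order at 3.45 ± 4.62 CPM, in 12 of 12 animals (adjusted p = 0.0103, exact sign-flip test). Vip-like nuclei held 38.5% of the 169 Htr3a UMIs. An Htr3a UMI was found in 4.25% of thinned Vip-like nuclei (9.48% unthinned, median depth 3069 UMIs), against 0 of 1461 oligodendrocyte-like nuclei unthinned, which allows a share of nuclei with a UMI of up to 0.205%. A nucleus counted here when it held at least 1 whole UMI of the gene, and fractions of a UMI did not count. In excitatory classes, Htr3a was at 0.27 to 1.00 CPM and no class differed from the rest.

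Of the Gs-coupled receptors, Htr4, which enhances excitability in hippocampal neurons, was highest in DG-like nuclei, the granule cells of the hippocampus. WT animals had 293 to 327 CPM (median 311) and Het animals 240.4 to 384 CPM (median 325), with a mean of 316 ± 33.5 CPM. The WT values lay inside the Het range. All 12 animals were above the other excitatory classes (9.45-fold, adjusted p = 0.00571, exact sign-flip test), and DG-like nuclei exceeded Vip-like nuclei in 11 of 12 (adjusted p = 0.0171, exact sign-flip test). An Htr4 UMI was found in 34.6% of thinned DG-like nuclei (56.0% unthinned, median depth 3173 UMIs), against 0.213% of oligodendrocyte-like nuclei.

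Vip-like (204 ± 58.6 CPM), striatal D2-like (193 ± 60.7 CPM), striatal D1-like (193 ± 71.1 CPM) and L5 NP-like nuclei (159 ± 34.2 CPM) shared the next level of Htr4 without differences between neighbors. Each was above the other classes of its group in 12 of 12 animals (2.42-fold to 2.68-fold, adjusted p = 0.00571 for each, exact sign-flip tests). A gap followed: L6 CT-like nuclei had 25.1 ± 8.50 CPM, below L5 NP-like nuclei in 12 of 12 animals (adjusted p = 0.0103, exact sign-flip test). L2/3, L4/5 and L6 IT-like nuclei had 1.97 to 3.80 CPM, beside 2.27 ± 2.53 CPM in oligodendrocyte-like nuclei. L5 NP-like nuclei as a class thus had both Htr4 and Htr2c and almost no Htr2a. Whether the same nuclei held Htr4 and Htr2c was not tested.

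Htr7, which is also expressed in thalamus and hypothalamus, had 54.2% of its UMIs in inhibitory and 43.8% in excitatory nuclei. Sncg-like nuclei had 0 to 96.7 CPM in WT (median 44.2) and 0 to 121 CPM in Het animals (median 48.3), with a mean of 52.8 ± 42.2 CPM (n = 11). Sst-like nuclei, the dendrite-targeting interneurons, had 10.9 to 54.9 CPM in WT (median 25.5) and 15.6 to 45.6 CPM in Het animals (median 28.5), with a mean of 30.6 ± 14.1 CPM. Sst-like nuclei had Htr7 in every animal and the Sncg-like values varied most. Their means were 3.17-fold that of the other inhibitory classes, with 9 of 11 animals above (adjusted p = 0.0515, exact sign-flip test), and 1.53-fold, with 9 of 12 above (adjusted p = 0.103, exact sign-flip test). Neither passed over all genes, and both passed when adjusted over the 98 receptor tests alone (exact sign-flip tests, p = 0.0185 and 0.0392). L2/3 IT-like nuclei were the high excitatory class at 11.9 ± 5.98 CPM, 3.40-fold the others in 12 of 12 animals (adjusted p = 0.00571, exact sign-flip test). No neighbors in the order of Htr7 differed. An Htr7 UMI was found in 3.84% of thinned Sst-like nuclei (8.42% unthinned, median depth 3552 UMIs), against 0.180% of oligodendrocyte-like nuclei.

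The classes were mixtures for some receptors. The clusters named next were chosen after their values were seen, and their values carry exact Poisson intervals for counting error only. Within the Vip-like class, Htr1f came mainly from a cluster of 30 nuclei led by Zic1 and Calb2, with 78 of the 146 Htr1f UMIs of the class at 1122 CPM (887 to 1400). A cluster of 22 L6 CT-like nuclei led by Rasgrp3 had no Htr1f UMI (0 to 52.6 CPM), unlike the other 2 clusters of that class. Of the 2 clusters of the striatal D2-like class, one of 100 nuclei led by Adora2a and Calcrl had 710.1 CPM of Htr1f (628 to 803) and one of 515 nuclei led by Adora2a and Drd2 had 111 CPM (94.7 to 128). The larger one held 75.0% of the WT and 87.6% of the Het nuclei of that class. Outside the class, an unnamed inhibitory cluster of 220 nuclei led by Chst9 and Foxp2 had 1080 CPM (1004 to 1160.1). A cluster of 98 striatal D1-like nuclei led by Drd3 and Isl1 had 587 CPM of Htr4 (499.7 to 685). The clusters led by Zic1, by Adora2a and Calcrl and by Drd3 were above, and that led by Rasgrp3 below, the mean of their class for that receptor.

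Unnamed clusters held other high levels. An excitatory cluster of 471 nuclei led by Npsr1 and Tshz2 combined 370.1 CPM of Htr4 (339 to 402) with 434 CPM of Htr2c (401 to 469). An inhibitory cluster of 49 nuclei led by Esr2, the estrogen receptor beta gene, had 996 CPM of Htr2c (859 to 1145). An inhibitory cluster of 90 nuclei led by Ndnf had 110.4 CPM of Htr2a (72.7 to 161). A cluster of 144 nuclei led by Lhx6 and Hcrtr2, the orexin receptor gene, had 156 CPM of Htr7 (123 to 196), above the mean of every named class. Htr3a was at 42.1 CPM (24.5 to 67.4) in a cluster of 123 nuclei led by Npas1 and Prox1.

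**Figure D2:**
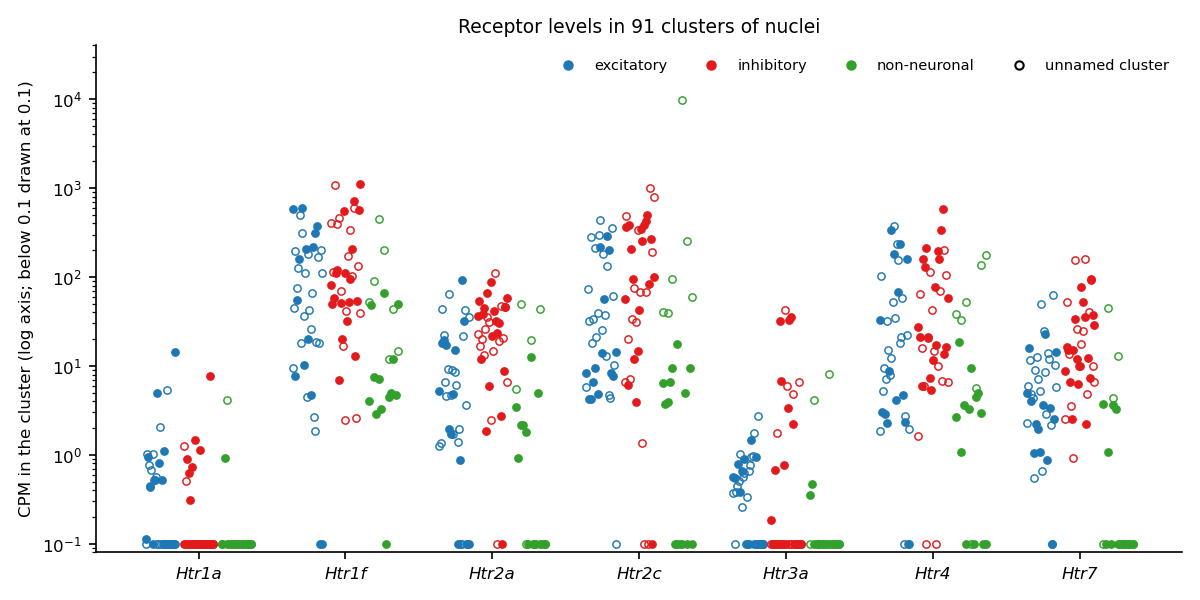
CPM of each receptor in each of the 91 clusters, on a log axis with values below 0.1 CPM drawn at 0.1, in blue for excitatory, red for inhibitory and green for non-neuronal clusters, filled for clusters assigned to a class and open for unnamed ones. The highest Htr2c point, at 9642 CPM, is an unnamed cluster of 43 nuclei, and the highest Htr7 and Htr2a points are unnamed as well.

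The highest Htr2c level of any cluster was in an unnamed non-neuronal cluster of 43 nuclei led by Ttr, the gene of transthyretin, with Gmnc and Otx2os1. It had 9642 CPM (9107 to 10204), against 996 CPM in the next cluster, and its 1204 UMIs were 11.1% of all Htr2c UMIs. Het female 3 gave 650.0 of them from 11 nuclei, at 21338 CPM. Without that animal the cluster had 5868 CPM, with 0 to 14904 CPM over the other animals. An Htr2c UMI was present in 21 of the 43 nuclei (48.8%, Wilson 95% interval 34.6% to 63.2%). The nuclei came from 10 animals, but the UMIs came from 4 of them, 1 WT female, 1 Het male and 2 Het females, and only 2 animals had 10 or more nuclei, so no comparison of genotypes was made. Ttr was at 0 to 1.32 CPM in the 16 compared classes, including 0.292 CPM in striatal D2-like nuclei and 0 in Sncg-like nuclei.

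The effect of MYT1L haploinsufficiency on the receptors was tested in each class on sums per animal. No receptor was called in any class where it could be fitted or in the pooled excitatory or inhibitory nuclei (edgeR quasi-likelihood test, adjusted p below 0.05 and log2 fold change beyond 0.2). Across all genes and classes 0.136% of tests were called, in pooled excitatory nuclei 0.17% and in pooled inhibitory nuclei 0.244%, so 0 of 41 receptor tests was near the background. Of the 30 tests in single classes, 24 had a lower and 6 a higher value in Het (median log2 -0.18, beside a median near 0 and 50.5% lower over all tests). The 30 tests repeat the same receptors in classes of the same animals, so they are not independent and the split is a description. An unadjusted p below 0.05 was found in 4 of the 30 (Htr1f in L6 CT-like and striatal D1-like, Htr2a in L2/3 IT-like and Htr2c in L5 NP-like nuclei), beside 6.97% of all tests. The WT and Het animals overlapped for all 7 receptors in all 16 classes, some of them with no UMI of the receptor. The share of all genes with such overlap is not given, so the overlap says nothing particular about the receptors. The fit covered 10 of the 16 classes for Htr1f, 8 for Htr2c, 7 for Htr4, 3 for Htr2a and 2 for Htr7. Htr1a, Htr3a in single classes and the remaining pairs, Htr7 in Sncg-like nuclei among them, had too few counts to enter the fit. Those pairs were not tested.

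**Figure D3:**
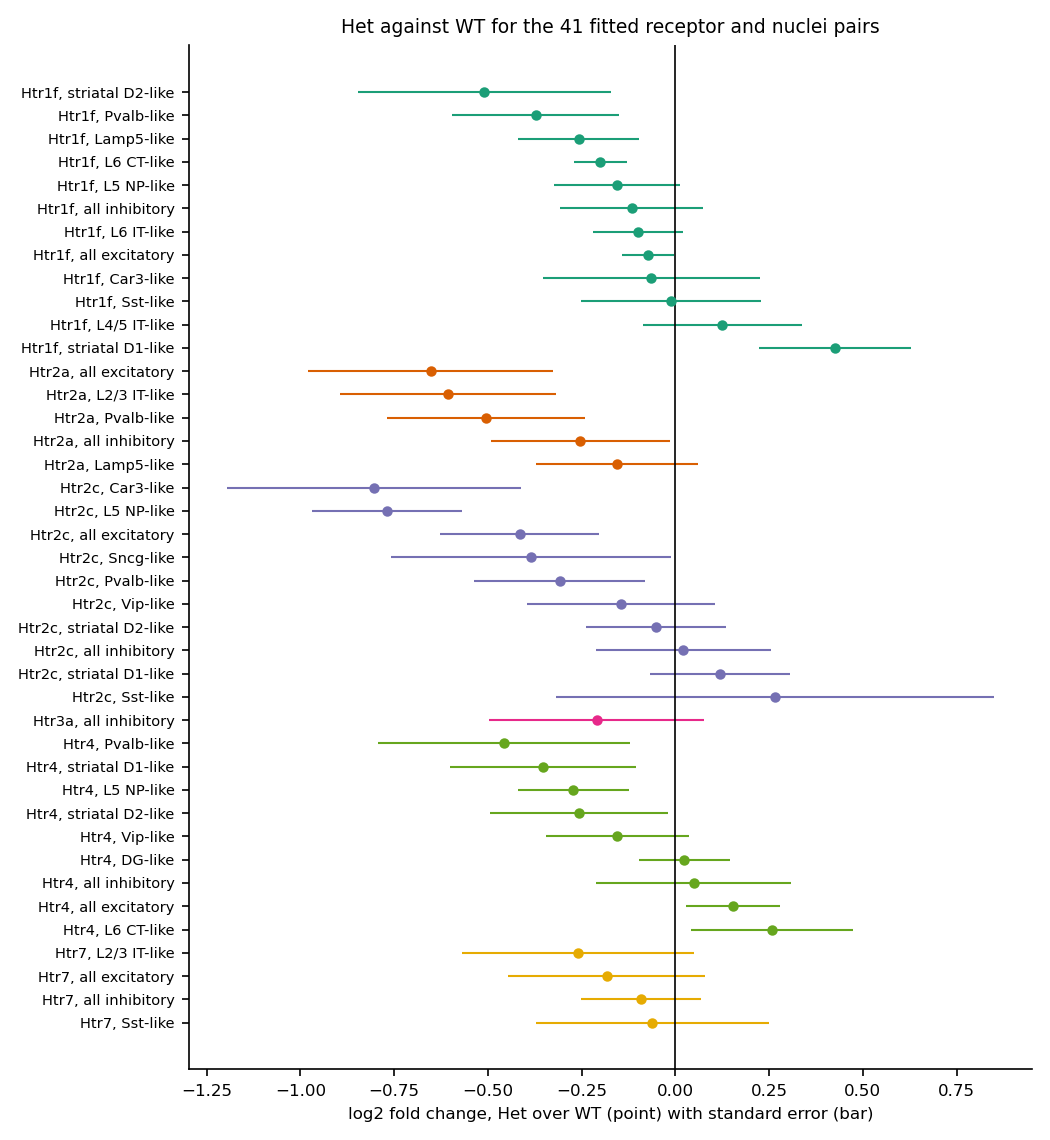
Log2 fold change of Het over WT (point) with its SE (bar) for the 41 receptor and class pairs that could be fitted by edgeR, grouped by receptor. Most points lie left of 0 and within about 2 SE of it, with Htr2c in L5 NP-like and Htr1f in L6 CT-like nuclei the farthest from 0 in units of SE.

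Among the Gi-coupled genes, Htr1f in L6 CT-like nuclei was 619 ± 46.8 CPM in WT and 552 ± 36.2 CPM in Het (log2 -0.20 ± 0.071 (SE), edgeR adjusted p = 0.211). The overlap came from 1 WT female at 550.4 CPM. With 2 kinds of nucleus limit dropped together, the ceilings on UMIs and genes and the minimum ratio of log genes to log UMIs, the same comparison was called (log2 -0.23, edgeR adjusted p = 0.0429). That setting had 76978 nuclei against 33118 in the main one. The added nuclei had no doublet score and took the cluster most frequent among their nearest kept nuclei. Within the 2 large clusters of the class, Htr1f was 616 CPM in WT and 555 CPM in Het in one and 671 and 552 CPM in the other, in nuclei pooled over animals. Htr1f in Car3-like nuclei was 296 ± 148 CPM in WT and 303 ± 106 CPM in Het (log2 -0.064 ± 0.29, edgeR adjusted p = 0.982), so the fitted value and the means differ in sign, and this pair is among the 24 lower values. Pooled excitatory nuclei had 189 ± 20.5 and 182 ± 11.9 CPM (log2 -0.073 ± 0.069, adjusted p = 0.867), and pooled inhibitory nuclei 172 ± 34.0 and 160.3 ± 46.6 CPM (log2 -0.12 ± 0.19, adjusted p = 0.982). In striatal D2-like nuclei Htr1f was 272 ± 110.1 CPM in WT and 189.9 ± 80.5 CPM in Het (log2 -0.51 ± 0.34, edgeR adjusted p = 0.961), where the cluster with less Htr1f was a larger share of the Het than of the WT nuclei. Htr1f in striatal D1-like nuclei, named after its values were seen, went the other way, with 102 ± 25.0 CPM in WT and 129.7 ± 30.3 CPM in Het (log2 0.43 ± 0.20, edgeR adjusted p = 0.684). The main of the 3 clusters of that class held 74.8% of its WT and 65.6% of its Het nuclei. The part of these cluster shares in the values of both striatal classes, those of Htr2c and Htr4 included, was not tested.

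Htr1a could not be fitted. It was 5.37 ± 5.38 CPM in WT and 3.47 ± 3.08 CPM in Het DG-like nuclei and 1.95 ± 2.45 and 1.34 ± 2.42 CPM in Sst-like nuclei. Pooled excitatory nuclei had 0.628 ± 0.407 and 0.613 ± 0.274 CPM, and pooled inhibitory nuclei 0.544 ± 0.447 and 0.307 ± 0.355 CPM. The animals of both genotypes overlapped in each of these. In DG-like nuclei the WT mean without WT male 2 was 3.56 CPM, beside 3.47 CPM in Het. In Sst-like nuclei WT was below Het without WT female 2 (1.22 against 1.34 CPM), and the difference in pooled excitatory nuclei changed sign without any of 5 animals (WT male 2, WT female 3, Het male 3, Het female 1 or Het female 2), to between 0.029 and 0.0931 CPM higher in Het.

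**Figure D4:**
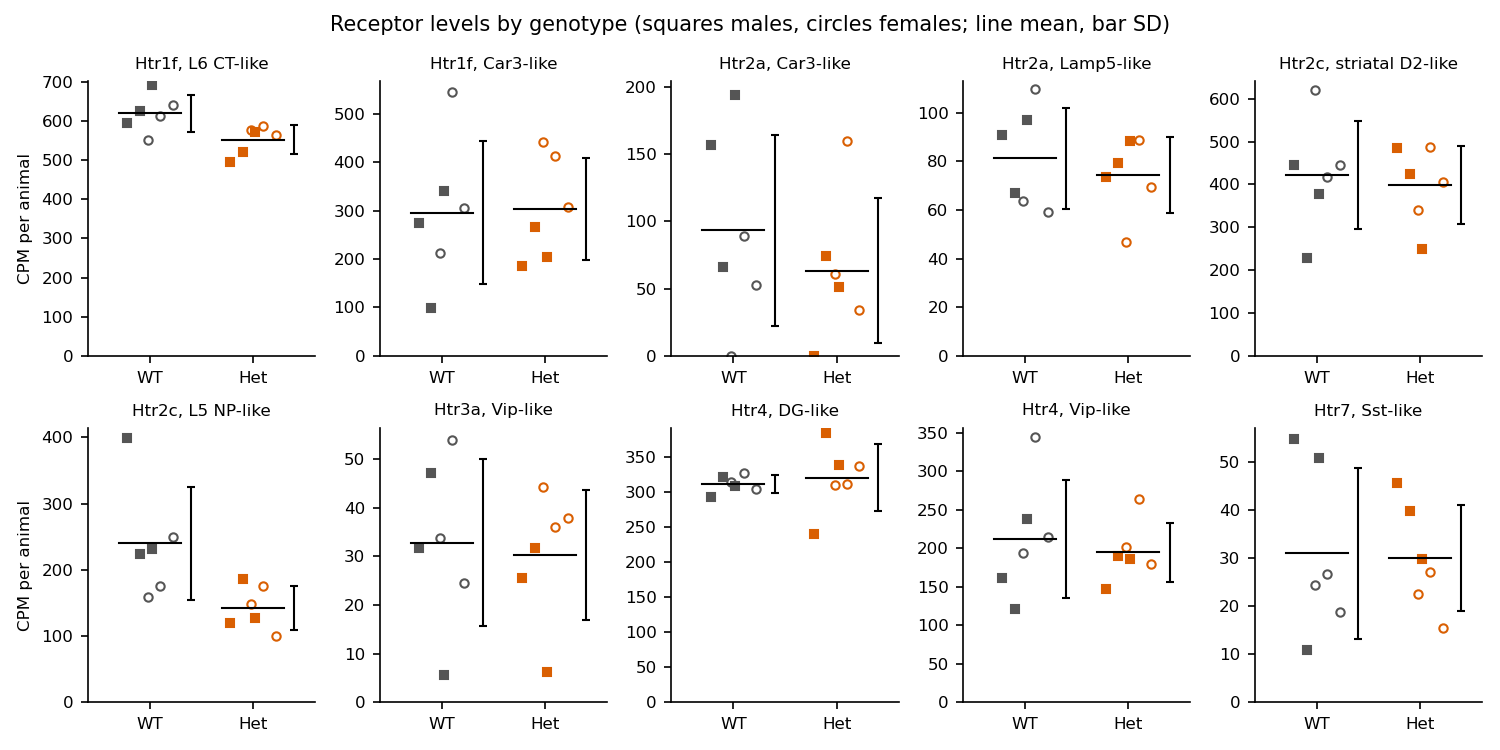
CPM per animal in WT and Het for 10 receptor and class pairs, with filled squares for males, open circles for females, a line at the mean and a bar of 1 SD. The genotypes overlap in every panel, and in the panel of Htr2c in L5 NP-like nuclei 4 of 6 Het animals lie below the lowest WT animal.

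Among the Gq-coupled genes, Htr2c in L5 NP-like nuclei, singled out after its values were seen, had the smallest p of the 41 tests. WT males had 399, 225 and 232 CPM and WT females 159.6, 175 and 249 CPM. Het males had 120, 186 and 128 CPM and Het females 149, 175 and 100.2 CPM. The groups overlapped through 2 WT females and 2 Het animals, and the largest value belonged to 1 WT male. The fit gave log2 -0.77 ± 0.20 (fold 0.586, 95% interval 0.447 to 0.769, edgeR adjusted p = 0.524), and without the filter on low counts it was called (log2 -0.74, adjusted p = 9.26e-05). With the nucleus ceilings and the minimum ratio dropped it was log2 -0.45. In nuclei pooled over animals, Htr2c was at 243 CPM in WT and 199 CPM in Het in one of the 3 clusters of the class, at 74.0 and 44.4 CPM in another and at 430 and 186 CPM in the last, which is led by Sntb1 and Grik1. Pooled nuclei give no test of genotype.

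In striatal D2-like nuclei Htr2c was 422 ± 127 CPM in WT and 398 ± 91.3 CPM in Het (log2 -0.052 ± 0.19, edgeR adjusted p = 0.999), and the interval of the fold ran from 0.748 to 1.24. In Sncg-like nuclei it was 291 ± 147 (n = 5) and 228 ± 121 CPM (n = 6) (log2 -0.39 ± 0.37, edgeR adjusted p = 0.964). Pooled excitatory nuclei had 70.5 ± 21.6 and 54.4 ± 10.2 CPM (log2 -0.41 ± 0.21, edgeR adjusted p = 0.716), and pooled inhibitory nuclei 169.9 ± 36.7 and 174 ± 50.7 CPM (log2 0.021 ± 0.23, edgeR adjusted p = 1.00). Htr2c was thus lower on average in Het excitatory nuclei and level in inhibitory ones, and neither difference passed the test.

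Htr2a was 81.2 ± 20.8 CPM in WT and 74.4 ± 15.6 CPM in Het Lamp5-like nuclei (log2 -0.16 ± 0.22, edgeR adjusted p = 0.921). In Car3-like nuclei it was 93.3 ± 71.2 and 63.3 ± 53.9 CPM, with too few counts for the fit. Without WT male 3, Htr2a there was 73.1 CPM in WT, and without Het female 2 it was 44.0 CPM in Het. In L2/3 IT-like nuclei, named after the values were seen, it was 18.7 ± 9.37 and 14.5 ± 5.63 CPM (log2 -0.61 ± 0.29, edgeR adjusted p = 0.560). Pooled excitatory nuclei had 15.6 ± 7.53 and 10.5 ± 3.56 CPM (log2 -0.65 ± 0.33, edgeR adjusted p = 0.707, and log2 -0.16 with the nucleus ceilings and the minimum ratio dropped), and pooled inhibitory nuclei 34.4 ± 12.9 and 29.3 ± 6.62 CPM (log2 -0.25 ± 0.24, edgeR adjusted p = 0.955, and log2 -0.055 without WT male 3). All 5 fitted values of Htr2a were lower in Het, from overlapping animals and without a call.

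Htr3a in Vip-like nuclei was 32.8 ± 17.1 CPM in WT and 30.3 ± 13.3 CPM in Het. In Sncg-like nuclei it was 45.8 ± 53.1 (n = 5) and 30.8 ± 21.2 CPM (n = 6), and in pooled excitatory nuclei 0.622 ± 0.962 and 0.341 ± 0.138 CPM. These directions rested on single animals. Without WT male 2 the WT mean in Sncg-like nuclei was 23.7 CPM, and without WT female 3 it was 0.241 CPM in pooled excitatory nuclei, both below Het. In Vip-like nuclei WT was below Het without WT male 2 (29.9 CPM), without WT female 2 (28.5 CPM) or, with Het at 35.1 CPM, without Het male 3. It could be fitted in pooled inhibitory nuclei only, at 4.47 ± 1.36 and 4.02 ± 1.68 CPM (log2 -0.21 ± 0.29, edgeR adjusted p = 0.979, 95% interval of the fold 0.585 to 1.28).

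Among the Gs-coupled genes, Htr4 in DG-like nuclei was 311 ± 12.3 CPM in WT and 320.5 ± 47.6 CPM in Het (log2 0.024 ± 0.12, edgeR adjusted p = 0.983), and the 95% interval of the fold, 0.862 to 1.20, was among the narrowest. In Vip-like nuclei it was 213 ± 76.7 and 195 ± 38.4 CPM (log2 -0.16 ± 0.19, edgeR adjusted p = 0.984). Pooled excitatory nuclei had 47.5 ± 5.56 and 53.8 ± 10.9 CPM (log2 0.15 ± 0.13, edgeR adjusted p = 0.843), and pooled inhibitory nuclei 61.5 ± 19.4 and 63.3 ± 17.6 CPM (log2 0.048 ± 0.26, edgeR adjusted p = 0.999). Htr7 in Sncg-like nuclei was 44.2 ± 35.7 CPM in WT (n = 5) and 60.03 ± 49.1 CPM in Het (n = 6), higher on average in Het from overlapping animals and with too few counts for the fit. Without Het female 3, Htr7 there was 47.9 CPM in Het. In Sst-like nuclei it was 31.04 ± 17.8 and 30.1 ± 11.1 CPM (log2 -0.062 ± 0.31, edgeR adjusted p = 0.997), in pooled excitatory nuclei 7.34 ± 3.77 and 6.97 ± 0.977 CPM (log2 -0.18 ± 0.26, edgeR adjusted p = 0.926) and in pooled inhibitory nuclei 23.6 ± 5.96 and 22.1 ± 3.65 CPM (log2 -0.092 ± 0.16, edgeR adjusted p = 0.985).

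The shares of some classes rich in a receptor are given here beside the pooled values. Pooled nuclei also include the unnamed clusters, some of them high in a receptor, whose shares by genotype are not given. Named clusters held 43.8% of all Htr2c UMIs and 63.2% of those of Htr4, so the listed classes are only part of the makeup. Striatal D2-like nuclei, high in Htr1f, Htr2c and Htr4, were 1.34% of WT and 2.30% of Het nuclei (exact permutation test over animals, p = 0.00433, adjusted p = 0.0909 over 21 shares). Striatal D1-like nuclei were 1.73% and 2.61% (p = 0.0346, adjusted p = 0.236) and DG-like nuclei 2.12% and 2.89% (p = 0.0563, adjusted p = 0.236, both by exact permutation tests). Sst-like nuclei were 4.39% and 3.66% (p = 0.0152, adjusted p = 0.159, exact permutation test) and Car3-like nuclei 1.09% and 0.717% (p = 0.0476, adjusted p = 0.236, exact permutation test). No share was called. The part of these shares in the pooled receptor values was not tested.

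The effect of genotype could differ between males and females, and no receptor was called for that either (edgeR quasi-likelihood test of the genotype by sex term, 0 of 41, beside 0.0107% of all tests in classes and 0.0% in pooled excitatory nuclei). An unadjusted p below 0.05 was found in 7 of the 41, beside 5.15% of all tests in classes, and in all 7 the Het over WT ratio was higher in females, as it was in 27 of the 41 receptor tests and in 50.6% of all genes tested in pooled excitatory nuclei. Some of the 7 share nuclei, since a class is also part of the pooled nuclei. The smallest p belonged to Htr4 in pooled excitatory nuclei. WT males had 46.5, 56.9 and 51.2 CPM and Het males 48.0, 39.3 and 46.8 CPM. WT females had 43.2, 42.4 and 45.0 CPM and Het females 68.8, 59.5 and 60.4 CPM. The 3 Het females were thus above all 9 other animals, and the Het males overlapped the WT males. The share of all genes with such a separation is not given, so it is a description. The log2 ratio was 0.80 ± 0.15 higher in females (edgeR adjusted p = 0.262), and without WT male replicate 2 it was called (0.76, edgeR adjusted p = 0.0355).

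DG-like nuclei, the class richest in Htr4, were 3.30% of excitatory nuclei in WT males, 4.48% in Het males, 3.22% in WT females and 4.67% in Het females. Without them the pooled means of Htr4 were 42.5 ± 3.42 CPM in WT males, 32.6 ± 5.28 CPM in Het males, 34.4 ± 4.40 CPM in WT females and 50.2 ± 6.94 CPM in Het females (SD, n = 3). Het females had the highest mean. The lowest Het female (42.4 CPM) then lay below the highest WT male (45.7 CPM), so the separation from all 9 other animals was lost. Within each sex the genotypes did not overlap. Het females were above all WT females (39.5 CPM or less), and Het males (38.5 CPM or less) were below all WT males (38.9 CPM or more). Each group had 3 animals, Htr4 was taken up here for its small p, and the share of all genes separated in this way is not given. These separations are thus descriptions and say nothing particular about Htr4. The genotype by sex term without DG-like nuclei was not tested. The other 6 pairs with p below 0.05 were Htr4 in Pvalb-like and L6 CT-like nuclei, Htr1f in Pvalb-like and L5 NP-like nuclei, and Htr7 in L2/3 IT-like and pooled excitatory nuclei. In L6 CT-like nuclei Htr4 was 23.4 CPM in WT males, 20.7 CPM in Het males, 20.5 CPM in WT females and 35.8 CPM in Het females (log2 0.97 ± 0.38, edgeR adjusted p = 0.940). Htr2c in pooled excitatory nuclei was 82.3 CPM in WT males, 49.2 CPM in Het males, 58.6 CPM in WT females and 59.6 CPM in Het females (log2 0.81 ± 0.36, edgeR adjusted p = 0.778), and without WT male replicate 2 it was called (1.05, edgeR adjusted p = 0.0470).

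**Figure D5:**
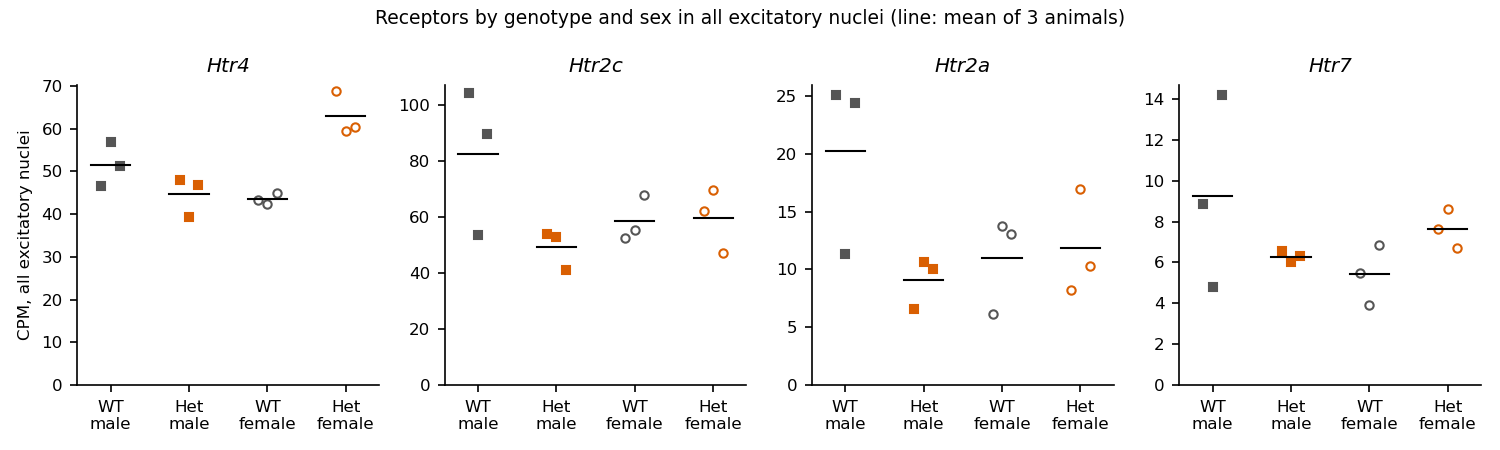
CPM per animal of Htr4, Htr2c, Htr2a and Htr7 in pooled excitatory nuclei by sex and genotype (n = 3 each). For Htr4 the 3 Het females, at 59.5 to 68.8 CPM, lie above the other 9 animals, which reach 56.9 CPM.

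The rest of the serotonin pathway was read from a list of 60 genes. In pooled excitatory nuclei, where 0.17% of all genes tested were called, 51 were tested and none was called, with 27 higher and 24 lower in Het and a median log2 near 0. The smallest p among the higher genes belonged to Kcnj6, a subunit of the G protein-gated potassium channel (log2 0.19 ± 0.059, edgeR adjusted p = 0.278), and Adarb2, an RNA editing enzyme homolog (0.30 ± 0.097, edgeR adjusted p = 0.359). Among the lower genes they belonged to Kcnj3, a partner of Kcnj6 in that channel (-0.21 ± 0.069, edgeR adjusted p = 0.366), and Pde4b, a cyclic AMP phosphodiesterase (-0.15 ± 0.061, edgeR adjusted p = 0.525). In pooled inhibitory nuclei, where 0.244% of all genes tested were called, 1 of 47 tested genes rose, Rgs20, a regulator of Gi/o signaling (log2 0.44 ± 0.089, edgeR adjusted p = 0.0241), and none fell. In single classes, where 0.136% of all tests were called, 1 of 451 tests fell, Kcnj3 in L6 CT-like nuclei (-0.52 ± 0.11, edgeR adjusted p = 0.0252), and none rose. The first count, a single gene, was above its background and the second near it. All 28 genes called in pooled inhibitory nuclei were higher in Het, and 1 gene was called there without both kinds of nucleus limit. The list was chosen with earlier results of these data known. L6 CT-like nuclei, with 61 of all 7919 genes tested called, were also the class richest in Htr1f.

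By group, the effectors (23 genes tested in pooled excitatory nuclei) had 14 higher and 9 lower values, the G proteins (8 genes) 5 and 3, the receptor partners (10 genes) 5 and 5, the genes of serotonin synthesis, transport and breakdown (6 genes) 1 and 5, and the other receptors (4 genes) 2 and 2. None was called. Of the 7 receptors outside the set described here, Htr1b had its top level in striatal D2-like nuclei, at 29.3 CPM, and Htr1d in striatal D1-like nuclei, at 11.5 CPM, and the other 5 stayed at or below 4.62 CPM in every compared class. The transporter Slc6a4 and the synthetic enzyme Tph2, which define serotonin neurons, were at or below 0.694 and 2.90 CPM.

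The genes whose levels over the 16 classes were most like those of each receptor were found among 8867 genes by Pearson correlation of mean log2(CPM + 1). The points share animals, and the values are descriptions. Htr3a had the closest match, Wnt5a (r = 0.924), with Gm48262 and Eva1c, all 3 highest in Sncg-like nuclei. Htr7 was most like A530058N18Rik (r = 0.898 for each of its 2 entries) and Socs5 (0.877), and Htr2a like Mfap3l (0.872), Gm13986 and Gm43875. Htr4 was most like Stk26 (0.827), Matr3 and Gm16638, Htr2c like Arhgap18 (0.822), Aldh5a1 and Nhs, Htr1f like Man2a1 (0.817), Hs3st5 and Bcl2, and Htr1a like Dnah9 (0.808), Lrrc40 and 4930509J09Rik, all 3 highest in DG-like nuclei. Among the receptors themselves the closest pairs were Htr3a with Htr7 (r = 0.633), Htr2c with Htr4 (0.549) and Htr2c with Htr7 (0.526), and the least alike were Htr1a and Htr2a (-0.520). Htr1a had 41 UMIs in all named clusters and no UMI in several of the 16 classes, so its correlations rest on very few counts.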

How the data were processed

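Nuclei of P21 cortex were profiled in 12 separate animals, told apart by reverse transcription barcodes and processed together in 1 batch. The deposited matrices hold expected counts (UMIs, fractional where a read was shared among genes) made by the authors with the ScaleBio pipeline on mm10 with GENCODE M21 annotation. The submitters' processing notes also name Seurat 4.3.0 and DESeq2 1.38.3, for steps not used here. Cluster names of the study were not used here.

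The study's limits on nuclei were applied (between 800 and 6000 UMIs and between 300 and 3000 genes, mitochondrial share up to 1%, log gene number over log UMI number 0.9 or more) and left 34862. This is fewer than the P21 nuclei that the study reports after its own filtering. A simulated-doublet score removed the top 5% per animal (1744 nuclei). Nuclei were clustered (leidenalg 0.10.2) without serotonin receptor genes. A cluster was named from marker lists when their mean log2 excess reached 1, at least 3 markers were raised 1.5-fold, and its leading genes did not favor another list. These limits were set after the clusters were seen, as single nuclei held too few marker UMIs to be gated. CPM used unrounded sums per animal and class (at least 10 nuclei), leaving out the viral reporter.

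Het was compared with WT by edgeR 4.0.16 (R 4.3.3) on sums rounded to whole counts, with TMM, filterByExpr, genotype only and Benjamini-Hochberg over all genes of a class, in classes with at least 3 animals of each genotype. The SE of a log2 value was its size divided by the square root of the F statistic. The 95% intervals took normal quantiles of that SE, so they can be narrower than the test allows. For Htr2a in pooled excitatory nuclei the interval of the fold was 0.408 to 0.992 at an unadjusted p of 0.0715 (edgeR quasi-likelihood test). The code was tested on simulated counts. Levels were compared by exact sign-flip tests over animals in 98 receptor and class pairs, with p adjusted over all genes with at least 30 UMIs (and, for comparison, over the 98 pairs), and shares by exact permutation. Het against WT values are given for the 2 highest classes of each receptor, the pooled nuclei and any call, with the fit where counts allowed one. Htr2c in L5 NP-like, Htr1f in both striatal classes and Htr2a in L2/3 IT-like nuclei were added after their values were seen; other named genes follow the pathway list and correlation rules. Depth was 2987 to 3402 UMIs per nucleus (median by animal), and intervals and floors cover counting error only. Members and lists were chosen with earlier results of these data known. Alternatives were another scaling, DESeq2 1.42.0, no filter, sex or a replicate block, wider nucleus limits, stricter markers, other level scales and leaving out each animal.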

Additional observations from a re-analysis of the deposited data

Results flagged for a closer look

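In 54 groups of WT or Het animals, 2 receptor values stood apart from the rest of their group by Dixon's criterion, which chance gives in about 1 in 20 groups. Htr3a in pooled excitatory nuclei was 2.53 CPM in WT female 3, where the next WT animal had 0.506 CPM. Htr4 in pooled inhibitory nuclei was 28.6 CPM in Het male 3, where the next Het animal had 64.9 CPM. Outside the compared classes, Htr2c reached 9640 CPM in the unnamed cluster led by Ttr, where Ttr itself was at 1905 CPM, against at most 410.4 CPM in a compared class. It was 5868 CPM without Het female 3.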

How the results depend on the processing

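The number of receptors called between Het and WT stayed at 0 in 17 of 19 alternatives and was 1 without the filter on low counts (Htr2c in L5 NP-like nuclei, log2 -0.74) and 1 on dropping both the ceilings on UMIs and genes and the minimum gene to UMI log ratio (Htr1f in L6 CT-like nuclei, log2 -0.23), and 0 with each animal left out. The causes were not tested. Genes called were 89 over all classes, 24 in pooled excitatory and 28 in pooled inhibitory nuclei. They became 136, 82 and 59 with DESeq2, 232, 163 and 142 without the filter, and 237, 62 and 1 without both kinds of limit. Sex as a covariate gave 13 in excitatory nuclei. Leaving out 1 animal gave 41 to 130, 6 to 51 and 10 to 50. The replicate block gave 80, 12 and 15, and no receptor call. Animals of the same sex and number did not deviate together (correlations -0.133 to 0.0966), so the numbers do not pair them.

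Small log2 differences changed sign. With the block, Htr1f in Car3-like nuclei was 0.0037 and Htr2c in pooled inhibitory nuclei -0.0059. Without both kinds of limit, Htr1f in Car3-like nuclei was 0.069, Htr4 in pooled excitatory nuclei -0.0964 and Htr7 in Sst-like nuclei 0.0046. Without the filter, Htr2c in striatal D2-like nuclei was 0.12. Leaving out 1 animal gave -0.21 to 0.20 for Htr1f in Car3-like, -0.18 to 0.073 for Htr2c in striatal D2-like, -0.085 to 0.16 for Htr2c in pooled inhibitory, -0.026 to 0.077 for Htr4 in DG-like, -0.32 to 0.036 for Htr4 in Vip-like, -0.084 to 0.21 for Htr4 in pooled inhibitory, -0.24 to 0.24 for Htr7 in Sst-like and -0.30 to 0.18 for Htr7 in pooled excitatory nuclei. None of these was called. Other differences kept their sign while their size moved by over 1.5 times. Over all alternatives the log2 difference ran from -0.12 to -0.032 for Htr1f in pooled excitatory, -0.28 to -0.045 for Htr1f in pooled inhibitory, -0.26 to -0.039 for Htr2a in Lamp5-like, -0.83 to -0.16 for Htr2a in pooled excitatory, -0.39 to -0.055 for Htr2a in pooled inhibitory, -0.66 to -0.18 for Htr2c in Sncg-like, -0.50 to -0.27 for Htr2c in pooled excitatory, -0.87 to -0.45 for Htr2c in L5 NP-like, -0.38 to -0.043 for Htr3a in pooled inhibitory and -0.21 to -0.0079 for Htr7 in pooled inhibitory nuclei. The genotype by sex term had 0 to 2 receptor calls with 1 animal left out, both (Htr4 and Htr2c in pooled excitatory nuclei) without WT male replicate 2, and Htr4 ran from 0.69 to 0.86.

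Of 98 level tests, adjusted over these tests, 63 to 73 were called under the alternatives against 66, and 1 reversed, Htr1a in Car3-like nuclei, from -1.08 to 0.082 CPM without both kinds of limit. Adjusted over all genes, 56 of the 66 were called, and no other pair. Htr1a (62.3 UMIs) and Htr3a (169 UMIs) had few counts, and Sncg-like (223) and Car3-like nuclei (291) were few.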
